A study of Homo sapiens with 6 samples.

Results

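The unfolded protein response genes described here were 3 sensors of protein folding stress in the endoplasmic reticulum (ERN1, EIF2AK3 and ATF6), the transcription factor XBP1, and 6 genes that carry out the response (HERPUD1, SEL1L, EDEM1, SDF2L1, HYOU1 and PDIA4). They were chosen by gene symbol, and all 10 had 1 row each among the 32679 genes of the deposited table. RNA sequencing was done on HEY cells, an established human ovarian cancer line, in 2 groups of 3 samples labelled as biological replicates and collected on day 3. The shNC cells carried a control hairpin and were labelled as untreated. The shPQBP1 cells carried a hairpin against PQBP1, which encodes a polyglutamine-binding protein with a role in splicing, and were given doxycycline at 1 µg/ml to induce it. Doxycycline was recorded for the shPQBP1 cells alone, so the effects of the hairpin and of doxycycline cannot be told apart. Both lines were made by lentiviral transduction and puromycin selection. In these bulk samples, fewer cells with a transcript and less of it per cell cannot be told apart either.

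When unfolded proteins accumulate in the endoplasmic reticulum, the chaperone BiP leaves the lumenal parts of the sensors and they become active. The kinase and nuclease IRE1, encoded by ERN1, cuts XBP1 mRNA at both ends of a short intron so that an active transcription factor can be made. ATF6 travels to the Golgi and is cleaved into a transcription factor, and PERK, encoded by EIF2AK3, phosphorylates eIF2α and slows translation. The active factors raise the genes of chaperones and of ER-associated degradation (ERAD), which returns misfolded proteins to the cytosol. The first steps of sensing are changes in protein that mRNA levels do not report.

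The sequence at the centre of the IRE1 arm is the short XBP1 intron, shown here because gene-level values cannot separate its spliced and unspliced forms. It spans 26 bases at chr22:28796128-28796153 on the minus strand (hg38), was annotated as an intron in 1 of 6 GENCODE XBP1 transcripts and lay inside a coding exon in 3 others. The capitals mark the intron as annotated, within its flanking bases. The first capital and the base after the last are both G, so an intron placed 1 base later gives the same spliced sequence. The capitals therefore do not settle the exact cut sites of IRE1.
XBP1 spliced region: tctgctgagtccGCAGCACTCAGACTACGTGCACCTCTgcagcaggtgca
The deposited table gives 1 FPKM value per sample for XBP1, so the share of mRNA without the intron was not analysed here.

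The promoters of these genes were searched for the binding sequences of ATF6 and XBP1, taking RefSeq windows of 300 bases on GRCh38.p14 that lie mostly before each start. The ER stress response element ERSE was searched as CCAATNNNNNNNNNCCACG, ERSE-II as ATTGGNCCACG and the core of the unfolded protein response element as TGACGTGG, on both strands. ERSE or ERSE-II stood in 4 of the 10 promoters, those of XBP1, HERPUD1, SDF2L1 and HYOU1. Either element stood in a promoter of 0.161% of 27305 genes, where a gene counted if any of its windows matched. The matches are shown in gene direction with the motif in capitals. For SDF2L1 and HYOU1 the ERSE-II match is on the opposite strand of the gene.
XBP1 ERSE, -52 to -34 from the start, chr22:28800598-28800626: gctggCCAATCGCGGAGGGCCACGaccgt
HERPUD1 ERSE-II, -117 to -107, chr16:56932020-56932040: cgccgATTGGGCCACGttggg
SDF2L1 ERSE-II, -188 to -178, chr22:21642109-21642129: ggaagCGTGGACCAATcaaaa
HYOU1 ERSE-II, -185 to -175, chr11:119057375-119057395: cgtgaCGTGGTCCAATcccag
HYOU1 ERSE-II, -79 to -69, chr11:119057269-119057289: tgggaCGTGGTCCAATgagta
In HYOU1 the match farther from the start overlapped the core of the unfolded protein response element, which stood in a promoter of 0.927% of these genes. A match is a description of the sequence and no evidence of binding in these cells.

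The knockdown was checked first. PQBP1 stood at 7.18, 6.67 and 6.93 FPKM (sequenced fragments adjusted for transcript length and for the total mapped per library) in shNC samples 1, 2 and 3, and at 1.68, 1.72 and 1.44 FPKM in the shPQBP1 samples. It fell to 0.243 of the control level (95% interval 0.205 to 0.289, limma adjusted p = 0.00154). The epithelial keratin KRT8 was at 52.76 to 65.61 FPKM and the leukocyte gene PTPRC at 0 in all 6 samples, while the epithelial gene EPCAM was low, at 0.79 to 1.13 FPKM. The mesenchymal gene VIM was at 1111.87 to 1342.76 FPKM. shNC sample 1 stood apart, since its highest correlation of log2 values with another sample was 0.955, against 0.965 to 0.969 for the others. Its deviations from the gene means followed the GC content of the transcripts with a rank correlation of 0.631 across genes, against -0.477 to 0.052 in the other 5 samples. The FPKM values summed to 294970.3 to 318484.3 in shNC and to 278285.8 to 287422.6 in shPQBP1.

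PQBP1 knockdown was accompanied by no change in these 10 genes that passed the test over all genes, and their fitted differences were small and went both ways. The 10 fold changes of shPQBP1 over shNC lay between 0.847 and 1.23, with 4 genes higher and 6 lower. The median log2 fold change was -0.021, and that of all 11413 genes tested was 0.021. At an adjusted p under 0.05 in limma, 0 of the 10 genes were called, where the background share was 2.91% of all genes tested. At an unadjusted p under 0.05, 2 of the 10 were called (ATF6 higher, EDEM1 lower), against 23.6% of all genes. A difference of more than 2-fold at that unadjusted threshold was found for 0 of the 10 and for 1.52% of genes. The groups did not overlap for 2 of the 10, again ATF6 and EDEM1, against 34.4% of genes. The 95% intervals for single genes, which are not adjusted for the number of genes, ran from a fold of 0.708 at the lowest to 1.69 at the highest, so that a 2-fold difference in either direction lay outside all 10.

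**Figure D1:**
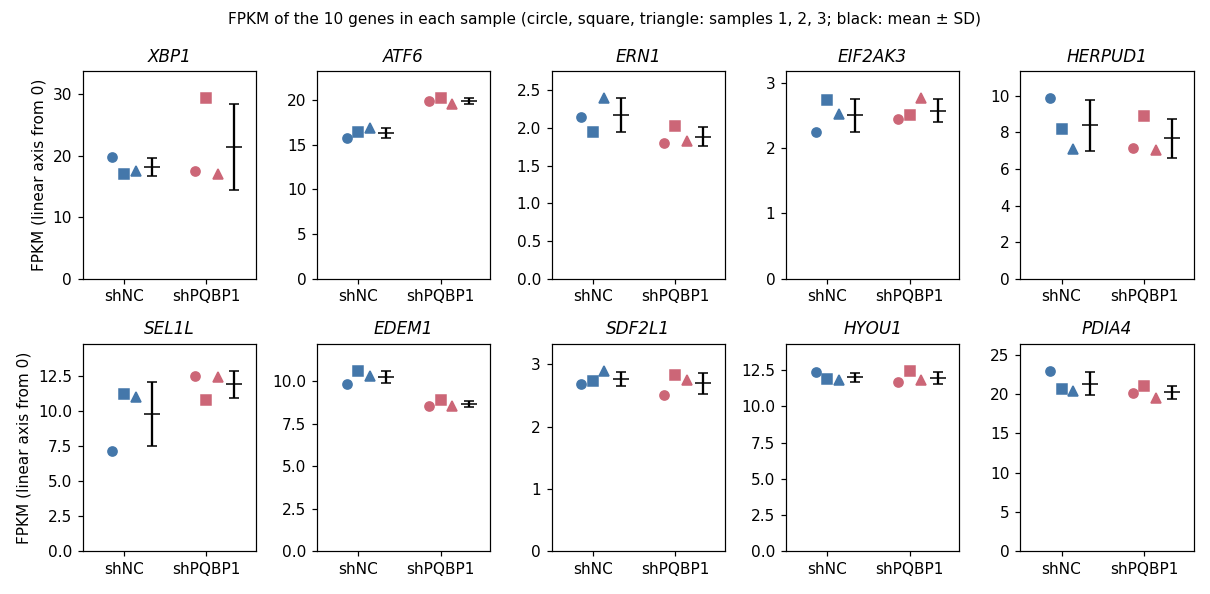
FPKM of the 10 genes (linear axes from 0) in the 3 shNC and 3 shPQBP1 samples, with sample 1 as a circle, 2 as a square and 3 as a triangle, and the mean ± SD of each group in black. The groups are apart for ATF6 and EDEM1 and overlap for the other 8 genes, and a single high shPQBP1 sample stands out for XBP1.

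Among the sensors, ATF6 encodes the membrane-bound precursor of a transcription factor and lies on chromosome 1 (hg38, 161766298 to 161977574). It was measured at 15.71, 16.41 and 16.85 FPKM in shNC and at 19.82, 20.22 and 19.54 FPKM in shPQBP1. All 3 shPQBP1 samples were above all 3 shNC samples, with group means of 16.3 ± 0.575 and 19.9 ± 0.342 FPKM (SD, n = 3 each). The fold change was 1.22 (95% interval 1.08 to 1.36, log2 fold change 0.28, SE 0.069). The adjusted p was 0.0873 in limma and the exact two-sided permutation p was 0.1, the smallest that 3 against 3 samples allow. ATF6 mRNA had a GC content of 41.2%, below the median of 47.5% over the genes, and after the trend on GC content and length was removed from each sample its log2 fold change was 0.095 (adjusted p = 0.588 in limma, with a range of 0.0621 to 0.588 over all alternatives). Without shNC sample 1 the ATF6 log2 fold change was 0.26 (adjusted p = 0.07).

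XBP1, the factor made active by splicing, lies on chromosome 22 (28794555 to 28800597). It was measured at 19.8, 17.01 and 17.5 FPKM in shNC and at 17.54, 29.38 and 17.06 FPKM in shPQBP1. The high value belonged to shPQBP1 sample 2 alone, while the other two shPQBP1 samples fell within the range of the controls. The fold change was 1.14 (95% interval 0.79 to 1.65, adjusted p = 0.602 in limma). Without shPQBP1 sample 2 the XBP1 log2 fold change turned from 0.19 to -0.062 (adjusted p = 0.746).

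That sample held the highest value of its group for 8 of the 10 genes. The summed FPKM of the 10 genes was 119.1 in it and 102.8 to 104.8 in the other 5 samples. XBP1 alone gave 29.38 FPKM of that sum in it and 17.01 to 19.8 FPKM in the other 5. Its distance from the mean of the other shPQBP1 samples on the log2 scale was 0.76 for XBP1, 0.33 for HERPUD1, 0.15 for ERN1 and -0.20 for SEL1L, and the remaining genes were closer.

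The kinase sensors had low mRNA levels and overlapping groups. ERN1 (chromosome 17, 64039080 to 64130819) was at 2.15, 1.95 and 2.4 FPKM in shNC and at 1.8, 2.03 and 1.83 FPKM in shPQBP1, a fold of 0.878 (95% interval 0.715 to 1.08, adjusted p = 0.371 in limma). EIF2AK3 (chromosome 2, 88556741 to 88691518) was at 2.24, 2.74 and 2.53 FPKM in shNC and at 2.44, 2.5 and 2.77 FPKM in shPQBP1, a fold of 1.03 (95% interval 0.845 to 1.25, adjusted p = 0.849). Neither kinase showed a difference beyond the spread of its samples, and the sign for EIF2AK3 changed under quantile normalization.

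None of the 3 ERAD genes passed the test, and their fitted differences had both signs. EDEM1 (chromosome 3, 5187646 to 5219958) encodes a lectin-like protein that helps to trim and extract misfolded glycoproteins. It was measured at 9.85, 10.59 and 10.29 FPKM in shNC and at 8.53, 8.89 and 8.55 FPKM in shPQBP1. Every shPQBP1 sample lay below every shNC sample, with means of 10.2 ± 0.372 and 8.66 ± 0.202 FPKM (SD, n = 3 each). The fold change was 0.847 (95% interval 0.749 to 0.957, log2 fold change -0.24, SE 0.073, adjusted p = 0.131 in limma, exact two-sided permutation p = 0.1). After correction for GC content and length EDEM1 passed the threshold in limma, with a log2 fold change of -0.28 and an adjusted p of 0.0339. That fit called 938 of 11385 genes. The adjusted p of EDEM1 ranged from 0.0339 to 0.336 over the alternatives. EDEM1 kept its direction in each of them.

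SEL1L (chromosome 14, 81471547 to 81533853) encodes the adaptor of the HRD1 ubiquitin ligase in the ER membrane. It was at 7.19, 11.26 and 11.05 FPKM in shNC and at 12.52, 10.83 and 12.48 FPKM in shPQBP1. The low value was that of shNC sample 1, and its mRNA had the lowest GC content of the 10 genes (39.3%). The fold was 1.23 (95% interval 0.899 to 1.69, adjusted p = 0.351 in limma). Without shNC sample 1 the log2 fold change of SEL1L went from 0.30 to 0.095 (adjusted p = 0.543), and after correction for GC content and length it was 0.052.

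HERPUD1 (chromosome 16, 56932142 to 56944864) encodes a membrane protein that assembles the same ligase complex and carries an ERSE-II match in its promoter. Its levels were 9.89, 8.17 and 7.1 FPKM in shNC and 7.13, 8.9 and 7.02 FPKM in shPQBP1. The groups overlapped, with a fold of 0.92 (95% interval 0.708 to 1.2, adjusted p = 0.646 in limma). Here shNC sample 1 was the highest of all, by 0.37 on the log2 scale over the mean of the other controls, and without it the log2 fold change was 0.004.

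The 3 folding genes had overlapping groups and fold changes between 0.95 and 0.998. HYOU1 (chromosome 11, 119044188 to 119057227) encodes a large chaperone of the lumen and was at 12.34, 11.85 and 11.78 FPKM in shNC and at 11.68, 12.45 and 11.79 FPKM in shPQBP1. Its fold of 0.998 had a narrow interval, 0.885 to 1.13 (adjusted p = 0.986 in limma). The HYOU1 promoter had the most motif matches of the 10.

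PDIA4 (chromosome 7, 149003062 to 149028662) encodes a protein disulfide isomerase. It was at 22.97, 20.63 and 20.36 FPKM in shNC and at 20.19, 21.03 and 19.44 FPKM in shPQBP1, a fold of 0.95 (95% interval 0.829 to 1.09, adjusted p = 0.581 in limma). SDF2L1 (chromosome 22, 21642302 to 21644299) encodes a partner of lumenal chaperones and was at 2.69, 2.73 and 2.9 FPKM in shNC and at 2.51, 2.83 and 2.75 FPKM in shPQBP1, a fold of 0.973 (95% interval 0.827 to 1.14, adjusted p = 0.81). Both genes had overlapping groups. SDF2L1 had the highest GC content of the 10 (65.1%), and its log2 fold change went from -0.040 to 0.18 after the correction for GC content and length (adjusted p = 0.454).

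**Figure D2:**
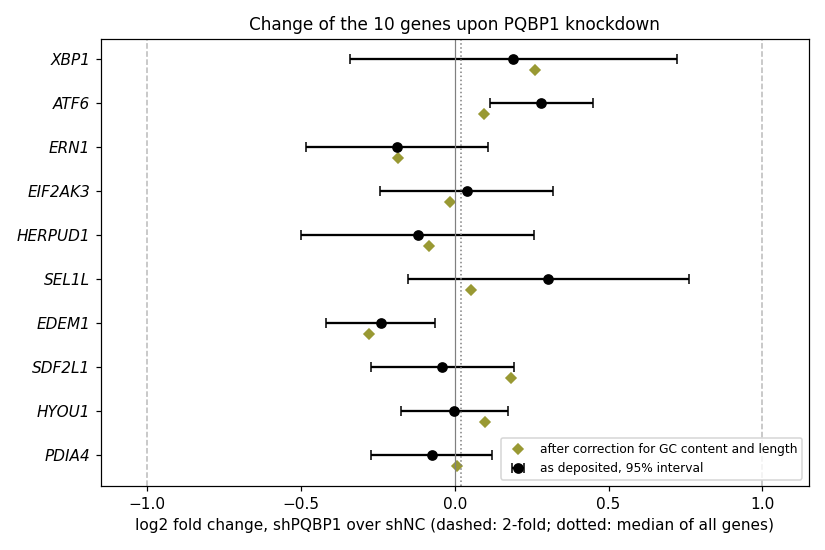
Log2 fold change of the 10 genes, shPQBP1 over shNC, on log2(FPKM + 0.1): black points with 95% intervals for the values as deposited, and diamonds for the values after correction for GC content and length. All intervals lie inside the dashed lines at 2-fold, and the intervals of ATF6 (0.28) and EDEM1 (-0.24) do not include 0.

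The samples that moved these genes differed from gene to gene. shNC sample 1 held the highest control value for 4 genes and the lowest for 5. Of the 5 genes with a GC content above the median of all genes, 3 were higher in it than the mean of the other controls, and of the 5 below the median 4 were lower. Across all genes the log2 fold change and the GC content had a rank correlation of -0.459, and whether this has a part in the values of ATF6 and SEL1L was not tested beyond the correction given.

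In FPKM, which is per length, the control cells held most mRNA of PDIA4 (21.3 FPKM), followed by XBP1 (18.1), ATF6 (16.3), HYOU1 (11.99), EDEM1 (10.2), SEL1L (9.83), HERPUD1 (8.39), SDF2L1 (2.77), EIF2AK3 (2.50) and ERN1 (2.17). The samples of EDEM1, SEL1L and HERPUD1 overlapped with their neighbours in this order, as did those of SDF2L1, EIF2AK3 and ERN1. ERN1 stood above 21.4% of the tested genes in the controls and PDIA4 above 84.9%. In shPQBP1 cells XBP1 (21.3), PDIA4 (20.2) and ATF6 (19.9) could not be ordered beyond their spread, and ERN1 (1.89) remained the lowest.

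The rest of the pathway was read from 6 wider lists with 88 genes, of which 84 were tested. In limma 3 of the 84 were called at an adjusted p under 0.05, all of them lower, against 2.91% of all genes called in either direction, and the median log2 fold change was -0.014. After correction for GC content and length 8 were called, where that fit called 938 of 11385 genes, 565 of them higher. Of the 8, 5 were higher (PDIA5, EDEM2, SRPRA, SEC31A and BLOC1S1) and 3 lower (VCP, SCARA3 and COL6A1). The correction changed which genes were called, and the sign of none of these 8. At an unadjusted p under 0.05, 10 were higher and 12 lower, against 23.6% of all genes in either direction, and the groups did not overlap for 32 of the 84, against 34.4% of all genes.

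Of the other regulators, which process or partner the sensors' factors, 0 of 9 tested genes passed, against 2.91% of all genes. Of the 9, 3 were higher. CREB3L2, a relative of ATF6 that is also cleaved at the Golgi, was at 5.88, 6.48 and 5.96 FPKM in shNC and at 6.9, 7.87 and 7.64 FPKM in shPQBP1 (log2 fold change 0.29, adjusted p = 0.137 in limma). The groups were apart for CREB3L2. NFYB and NFYC, subunits of the factor that binds the CCAAT part of ERSE, had log2 fold changes of 0.32 and -0.22 (adjusted p = 0.464 and 0.214). NFYB was lowest in shNC sample 1 (3.38 FPKM). MBTPS2, a protease that cleaves ATF6, had a log2 fold change of -0.19 (adjusted p = 0.53).

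Of the 20 folding genes 0 passed, against 2.91% of all genes, with 12 higher and 8 lower. The largest differences were in the co-chaperones DNAJB9, at 1.2, 1.98 and 1.78 FPKM in shNC and 2.9, 2.05 and 2.59 FPKM in shPQBP1 (log2 fold change 0.59, adjusted p = 0.182 in limma), and DNAJC10 (0.55, adjusted p = 0.206). Both were lowest in shNC sample 1. DNAJB11, another co-chaperone, was at 27.41, 29.42 and 30.43 FPKM in shNC and at 26.14, 24.71 and 24.13 FPKM in shPQBP1 (log2 fold change -0.22, adjusted p = 0.164), and TXNDC5, a disulfide isomerase, had -0.19 (adjusted p = 0.215). HSPA5, which encodes BiP, is often used to read the response and was picked here after its values were seen, stood at 248.4, 242.29 and 244.31 FPKM in shNC and at 224.74, 222.26 and 223.55 FPKM in shPQBP1. BiP mRNA was lower in every knockdown sample by a small margin that did not pass (log2 fold change -0.13, adjusted p = 0.201). HSP90B1, CALR and CANX of the same list, also with ERSE matches and picked after their values were seen, had 0.48, -0.016 and 0.015. None of them passed (adjusted p = 0.248, 0.924 and 0.896 in limma). HSP90B1 was lowest in shNC sample 1 (73.52 FPKM).

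The ERAD list gave 0 of 18 tested genes, against 2.91% of all genes, with 9 higher and 9 lower. EDEM3, a relative of EDEM1, went the other way from it, at 2.05, 4.81 and 3.7 FPKM in shNC and 6.85, 5.09 and 5.92 FPKM in shPQBP1 (log2 fold change 0.81, adjusted p = 0.185 in limma). Its lowest value was again in shNC sample 1. SYVN1, which encodes the HRD1 ligase that SEL1L serves, was at 3.43, 3.45 and 3.46 FPKM in shNC and at 2.12, 2.46 and 3.05 FPKM in shPQBP1 (log2 fold change -0.44, adjusted p = 0.143), with no overlap of the groups. UBXN4, which recruits the segregase p97, had a log2 fold change of 0.43 (adjusted p = 0.286) and was also lowest in shNC sample 1 (15.05 FPKM).

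For protein entry and transport, 0 of 21 genes passed, against 2.91% of all genes, with 10 higher and 11 lower. SEC31A, a coat protein of vesicles that leave the ER, came closest, at 10.24, 11.35 and 11.07 FPKM in shNC and 13.73, 14.36 and 14.45 FPKM in shPQBP1 (log2 fold change 0.38, adjusted p = 0.0578 in limma). SEC31A passed with genes at a mean of at least 10 FPKM (adjusted p = 0.0471) and with the correction for GC content and length (adjusted p = 0.0226), with a range of 0.0226 to 0.261 over the alternatives, and the correction also called SRPRA, of the signal recognition particle receptor (adjusted p = 0.0492, range 0.0492 to 0.476). The translocon partners SEC63 and SEC62 had 0.41 and 0.38 (adjusted p = 0.33 and 0.426), and both were lowest in shNC sample 1 (7.45 and 12.53 FPKM). SRPRB and SPCS2, of the same receptor and of the signal peptidase, had -0.35 and -0.23 (adjusted p = 0.209 and 0.381). SRPRB was highest in shNC sample 1 (26.95 FPKM).

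In the PERK and stress arm 1 of 13 tested genes passed, against 2.91% of all genes. The 13 were 5 higher and 8 lower, with a median log2 fold change of -0.134. ATF3, a stress-induced transcription factor, was at 5.79, 5.67 and 6.06 FPKM in shNC and at 4.38, 3.86 and 3.82 FPKM in shPQBP1. It fell to 0.693 of the control level (log2 fold change -0.53, adjusted p = 0.0384 in limma). The call for ATF3 was kept in 5 of 14 alternatives (limma adjusted p range 0.0352 to 0.228). It was lost with the correction for GC content and length (adjusted p = 0.06) and with the replicate block (adjusted p = 0.228). It was also lost with all genes above 0 (adjusted p = 0.0784) and with any 1 sample left out. TRIB3, another target of this arm, had -0.47 (adjusted p = 0.328), while EIF2AK4, a kinase of eIF2α that senses amino acid lack, and ASNS, the asparagine synthetase, had 0.21 and 0.18 (adjusted p = 0.198 and 0.278). ATF4, PPP1R15A and DDIT3 of the same list were picked after their values were seen. They had -0.21, -0.29 and -0.26 and did not pass (adjusted p = 0.203, 0.137 and 0.26 in limma).

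Of 4 listed transcripts that active IRE1 is known to degrade, 3 were tested and 2 fell, against 2.91% of all genes called in either direction, and so small a list says little about IRE1 substrates as a group. COL6A1, a chain of collagen VI, was at 15.93, 14.55 and 16 FPKM in shNC and at 8.11, 9.64 and 9.21 FPKM in shPQBP1, and fell to 0.582 of the control level (log2 fold change -0.78, adjusted p = 0.0187 in limma). SCARA3, a scavenger receptor-like protein, was at 1.88, 1.96 and 1.73 FPKM in shNC and at 0.69, 0.76 and 1.06 FPKM in shPQBP1, and fell to 0.473 (log2 fold change -1.08, adjusted p = 0.0384). BLOC1S1, a substrate widely used to read this activity, had a higher mean in shPQBP1, at 13.33, 9.45 and 10.55 FPKM in shNC and 13.96, 14.33 and 11.44 FPKM in shPQBP1 (log2 fold change 0.26, adjusted p = 0.341). The groups overlapped for BLOC1S1, and after correction for GC content and length it was called higher (log2 fold change 0.46, adjusted p = 0.0345, range 0.0345 to 0.579 over the alternatives). With each sample left out in turn, COL6A1 passed in 1 of 6 fits, that without shNC sample 1, and ATF3 and SCARA3 in 0 of 6. Over all alternatives the adjusted p of COL6A1 was 0.0125 to 0.176, of ATF3 0.0352 to 0.228 and of SCARA3 0.0298 to 0.215.

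**Figure D3:**
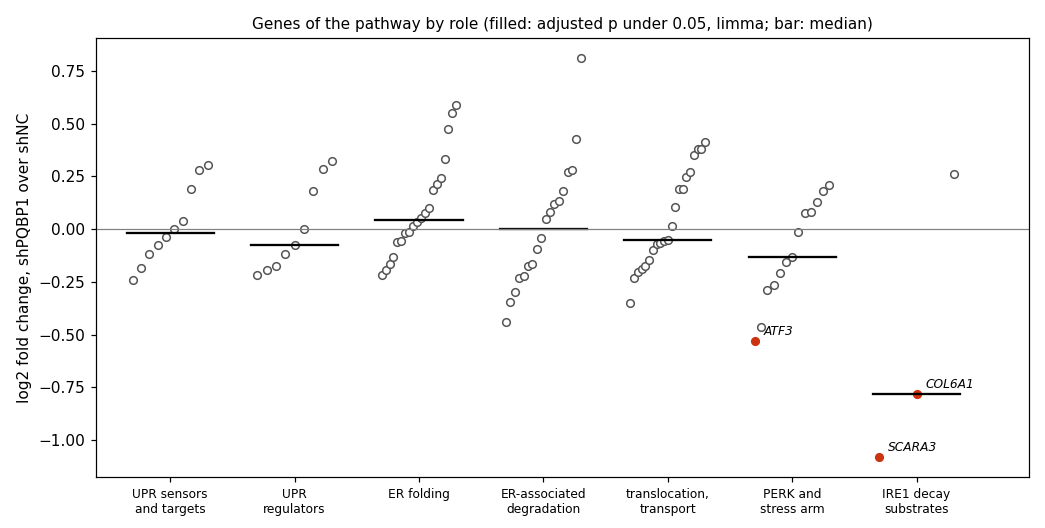
Log2 fold change, shPQBP1 over shNC, of every tested gene of the 10 and of the 6 wider lists, ordered by value within each list, with the list median as a bar and genes at an adjusted p under 0.05 (limma) filled. The filled genes are ATF3 (-0.53), COL6A1 (-0.78) and SCARA3 (-1.08), and the median is -0.78 for the IRE1 substrates and between -0.13 and 0.044 for the others.

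The genes with an ERSE or ERSE-II match were found on both sides. Among the 10 and the wider lists 11 genes had a match, 5 of them higher and 6 lower. Their median log2 fold change was -0.002, and 0 were called at an adjusted p under 0.05 in limma, against 2.91% of all genes. Among all tested genes 29 had a match, with 17 higher and 12 lower, a median of 0.046 against 0.026 for all tested genes with a promoter window, and 7 (24.1%) at an unadjusted p under 0.05 against 23.6% of all genes.

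**Figure D4:**
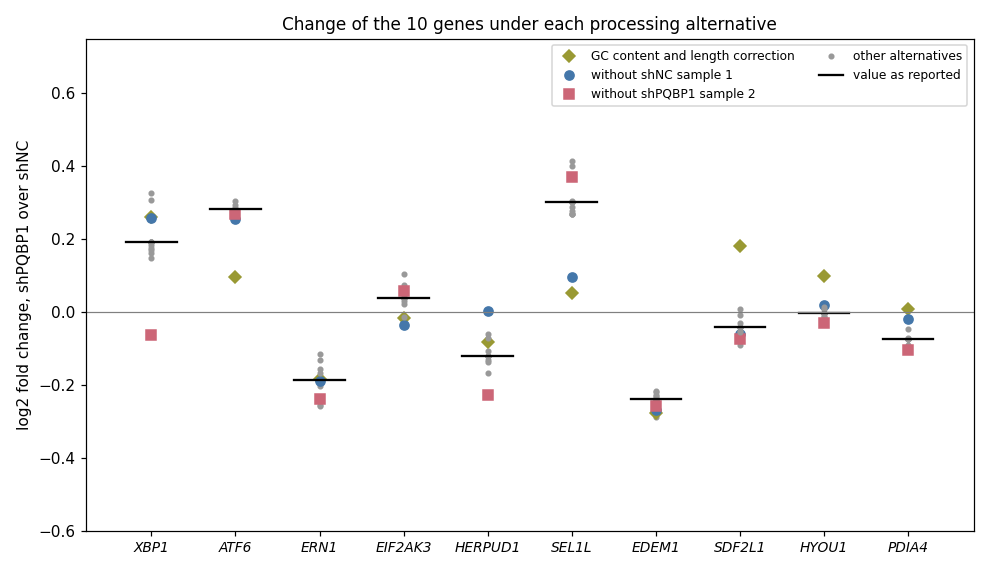
Log2 fold change of the 10 genes, shPQBP1 over shNC, as reported (bars) and under each processing alternative (points), with the GC content and length correction, the fit without shNC sample 1 and that without shPQBP1 sample 2 marked. ATF6, ERN1, SEL1L and EDEM1 keep their sign under all alternatives, and the other 6 genes cross 0 under at least 1.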

How the data were processed

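The authors sequenced poly(A) RNA as Illumina paired-end reads and used HISAT2 (version 2.2.0) on hg38, then SAMtools (version 1.9) and StringTie (version 1.3.0) to build transcripts, and compared groups with edgeR. The annotation release is not given in the sources used here. The authors deposited FPKM per gene and sample, rounded. The table's own fold changes, p-values, q-values and calls were not used. Sequencing depth is unknown, so the spread between 3 samples stands for all error.

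Groups were compared on log2(FPKM + 0.1), which understates differences of low genes, for the 11413 genes with a mean of at least 1 FPKM, with limma (version 3.58.1, R version 4.3.3; trend, two-sided) and Benjamini-Hochberg adjustment over those genes. Single genes also had an exact permutation test. Intervals are at 95%. GC content and length came from GENCODE 44 transcripts, and 99.8% of the tested genes had a value. For the correction a trend on both was removed from each sample. The scripts were tested on simulated data. The genes and lists were chosen with earlier results of these data known. Besides the 10 genes and PQBP1, each list's called genes and the 2 tested genes highest and lowest in log2 fold change were named, apart from an item that is not reported here. The alternatives changed scaling, filter, pseudocount, variance trend, pairing, GC correction or left out a sample.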

Additional observations from a re-analysis of the deposited data

How the results depend on the processing

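The count of the 10 genes at an adjusted p under 0.05 was 0 under every alternative except the GC content and length correction, which gave 1 (EDEM1). At an unadjusted p it was 2, and 1 with a mean of at least 10 FPKM, with the replicate block or with the GC correction, and 1 to 2 with a sample left out. Over all genes the 332 adjusted calls became 190 with all genes above 0, 211 with a mean of at least 10 FPKM, 938 with the GC correction and 30 (without shPQBP1 sample 3) to 466 (without shNC sample 1) with a sample left out. The 2689 unadjusted calls became 4156 with all genes above 0, 956 with a mean of at least 10 FPKM and 1767 to 2940 with a sample left out. The 3 calls in the wider lists became 1 with all genes above 0, 8 with the GC correction (5 higher, 3 lower) and 0 to 1 with a sample left out. The median of the 10 went from -0.021 to 0.191 with a mean of at least 10 FPKM, where fewer of them are kept. With the GC correction the log2 fold change turned to -0.016 for EIF2AK3, 0.182 for SDF2L1, 0.1 for HYOU1 and 0.008 for PDIA4, and with quantile normalization to -0.018 for EIF2AK3. With a sample left out XBP1 ranged from -0.062 to 0.328, EIF2AK3 from -0.036 to 0.104, HERPUD1 from -0.232 to 0.004, SDF2L1 from -0.075 to 0.009 and HYOU1 from -0.03 to 0.018. The cause of these shifts was not tested. No pairing by sample number was visible (correlations of same-numbered deviations -0.186, -0.138 and -0.011). As the deviations of 3 samples sum to 0 within each group, these values cannot show whether the samples were paired. A fit with the number as a replicate block gave 0 adjusted calls in limma over all genes, the 10 and the wider lists, and 1840 genes at an unadjusted p. With 3 samples per group and unknown depth, the intervals given reflect the spread between samples in the main fit only. They do not cover the choice of processing. For ATF6 the interval was 0.115 to 0.449 on the log2 scale, and the GC correction gave 0.095, outside it.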
